A study of Mus musculus with 8 samples.

Results

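The lecticans are 4 secreted proteoglycans, aggrecan (Acan), versican (Vcan), neurocan (Ncan) and brevican (Bcan), and the link proteins Hapln1, Hapln2, Hapln3 and Hapln4 are the 4 proteins that fasten them to hyaluronan. These 8 genes were taken by name from the 43346 gene identifiers in the count files, and all 8 had a count in at least 1 sample. mRNA was measured in notochord-derived cells (NDCs) of Shh-cre;ROSA:YFP mice, in which Cre under the control of Shh switches on the fluorescent protein YFP in Shh-expressing cells and their descendants. There were 4 samples from embryonic day 12.5 (E12.5; litters NDP10.2, NPD3, NPD4 and NPD9.2) and 4 from postnatal day 0 (P0; litters NPD26, NPD27, NPD28 and NPD30), each a pool of the embryos or pups of a single litter, and all carried the same alleles with no treatment. E12.5 notochords were dissected whole and not sorted, whereas P0 cells were shaken out of opened thoracic and lumbar discs and sorted for YFP, so stage and isolation cannot be told apart.

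Lecticans carry chondroitin sulfate chains on a core protein whose N-terminal globular domain binds hyaluronan. A link protein binds both partners and locks the complex, and the resulting aggregates hold water and give the nucleus pulposus (NP) and cartilage their resistance to compression. Aggrecan is the main lectican of cartilage and the disc, versican is widespread in embryonic mesenchyme, and neurocan and brevican are best known from the nervous system. Hapln1 is the link protein of cartilage, Hapln2 and Hapln4 are known mainly from the nervous system, and Hapln3 is found more widely. In the mouse genome each link protein gene neighbors a lectican gene.

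Reads assigned to genes numbered 4442775 to 7180221 in an E12.5 sample and 6371842 to 8904050 in a P0 sample. Abundance is given in CPM, a gene's count scaled to the normalized size of its library. The floor of detection, 3 counts, lay at 0.337 to 0.675 CPM when scaled to reads assigned to genes, without that normalization. That limit describes counting error alone. T, the transcription factor that defines the notochord, ranged from 242 to 942 CPM in E12.5 samples and from 574 to 2323 CPM in P0 samples, while Noto, a marker of the early notochord, had 0 to 3 counts per sample and Shh itself was at only 0.157 to 11.8 CPM in P0 samples. The samples also held RNA typical of other cells. Summed over each list of markers, erythroid genes reached 10144 to 49398 CPM in E12.5 samples against 363 to 1247 CPM in P0 samples, leukocyte genes 72.4 to 193 CPM against 1006 to 8920 CPM, and annulus fibrosus and fibroblast genes 1058 to 3387 CPM against 5416 to 19221 CPM. Their part in the values below was not tested. In bulk RNA, fewer cells that express a gene and less of its mRNA in each cell cannot be told apart.

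The 4 pairs of neighboring genes are placed on GRCm38 by Gencode M21. Acan (ENSMUSG00000030607.6; chr7:79053483-79115099, plus strand) and Hapln3 (ENSMUSG00000030606.7; chr7:79115102-79131018, minus strand) converge with only 2 bases between their ends. Vcan (ENSMUSG00000021614.12; chr13:89655312-89742509, minus strand) and Hapln1 (ENSMUSG00000021613.8; chr13:89539796-89611652, plus strand) converge across 43659 bases. Ncan (ENSMUSG00000002341.8; chr8:70093085-70120873, minus strand) and Hapln4 (ENSMUSG00000007594.9; chr8:70083457-70090862, plus strand) converge across 2222 bases. Bcan (ENSMUSG00000004892.9; chr3:87987531-88000230, minus strand) and Hapln2 (ENSMUSG00000004894.6; chr3:88021750-88027583, minus strand) lie on the same strand, 21519 bases apart. No protein-coding gene lies between the genes of any pair. The longest identical stretch in transcripts of any 2 of the 8 genes was 21 bases, shared by Vcan and Ncan, against reads of 100 bases. Reads of one member are thus unlikely to have been counted on another through shared sequence. Whether reads that run past the end of Acan were counted on Hapln3, or the reverse, was not examined.

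Promoter sequences are shown for 3 lecticans, Acan and Vcan because they moved in opposite directions and Bcan because it rose from near the floor. RefSeq start sites were listed for 7 of the 8 members, Hapln4 being the one without an entry. The 250 bases before the start are printed 5′ to 3′ on the strand of the gene (GRCm38.p6), with capitals marking matches on either strand to the GC box, spelled GGGCGG or CCGCCC, or to the core of the SOX motif, spelled ACAAT or ATTGT. Overlapping matches were each counted.
Acan (chr7:79052976-79053225, plus strand): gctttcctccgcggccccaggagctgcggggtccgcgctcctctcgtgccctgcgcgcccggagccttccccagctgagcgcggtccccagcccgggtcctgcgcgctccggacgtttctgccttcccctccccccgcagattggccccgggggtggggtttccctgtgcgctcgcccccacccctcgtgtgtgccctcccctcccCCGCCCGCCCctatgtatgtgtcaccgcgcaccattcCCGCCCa
Vcan (chr13:89742513-89742762, minus strand): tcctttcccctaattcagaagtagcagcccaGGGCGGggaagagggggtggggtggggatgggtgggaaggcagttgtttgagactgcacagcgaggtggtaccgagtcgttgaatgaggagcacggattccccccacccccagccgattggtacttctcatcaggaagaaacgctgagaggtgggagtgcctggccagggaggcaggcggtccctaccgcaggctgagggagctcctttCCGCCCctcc
Bcan (chr3:88000357-88000606, minus strand): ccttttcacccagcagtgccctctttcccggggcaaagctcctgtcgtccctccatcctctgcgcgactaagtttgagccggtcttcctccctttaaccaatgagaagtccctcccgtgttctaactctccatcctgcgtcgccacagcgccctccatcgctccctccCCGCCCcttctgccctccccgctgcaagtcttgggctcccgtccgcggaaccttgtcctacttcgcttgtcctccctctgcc
These windows hold no annotated exon. The Acan window was 74.4% G and C, higher than 95.4% of all 32851 promoter windows, against 62.4% for Vcan and 62% for Bcan and a median of 52.4%. It held 3 matches to the GC box, the Vcan window 2 and the Bcan window 1, where 32.7% of all windows held at least 1. None of the 3 held the SOX core, which was present in 27.7% of all windows. Among the members not shown, it had 1 match in the window of Hapln1, 3 in that of Hapln2, 1 in that of Hapln3 and 0 in that of Ncan. All 250 bases of the Hapln1 window lie in annotated exon of that gene, as do 72 bases for Hapln2 and 29 for Ncan. A match to these letters is a description and not a binding site.

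Versican mRNA fell more than that of any other member tested. Vcan was at 440, 949, 599 and 668 CPM in NDP10.2, NPD3, NPD4 and NPD9.2, and at 14.3, 35.0, 31.5 and 45.3 CPM in NPD26, NPD27, NPD28 and NPD30. Every E12.5 sample lay far above every P0 sample. The mean dropped from 664 ± 213 CPM to 31.6 ± 12.9 CPM (SD, n = 4), a log2 fold change from E12.5 to P0 of -4.39 ± 0.41 (SE; adjusted p = 0.000112, edgeR quasi-likelihood test), or a 21.0-fold lower abundance. Only 95 of the 15467 genes tested had a more negative log2 fold change. Leaving out any 1 sample gave -4.66 to -4.14. The 7 sclerotome markers, of the mesenchyme that surrounds the notochord, were all lower at P0, where 12.0% of all genes tested were lower. Their sum dropped from a range of 158 to 225 CPM to one of 12.9 to 27.7 CPM. How much of the E12.5 versican came from such cells was not tested.

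Aggrecan mRNA moved the other way, with a much wider spread between litters. Acan was at 892, 537, 164 and 328 CPM in NDP10.2, NPD3, NPD4 and NPD9.2, compared to 895, 646, 2482 and 3603 CPM in NPD26, NPD27, NPD28 and NPD30. NPD28 and NPD30 lay far above all other samples, whereas NPD26 barely exceeded NDP10.2 and NPD27 lay below it, and the highest and lowest litters differed 5.43-fold within E12.5 and 5.58-fold within P0. The log2 fold change of 1.99 ± 0.65 (SE) passed the test narrowly (adjusted p = 0.0422). It no longer passed when NPD3 (adjusted p = 0.091), NPD4 (0.0722), NPD9.2 (0.114), NPD28 (0.0857) or NPD30 (0.0969) was left out, with log2 fold changes of 1.44 to 2.01 in those fits.

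Within each stage the order of the litters in Acan was that of chondrocyte and notochord markers. At E12.5 the summed chondrocyte markers, led by Col2a1, were at 9564 CPM in NDP10.2, 7605 in NPD3, 4713 in NPD9.2 and 2769 in NPD4, which is the order of Acan. At P0 they were at 5289 CPM in NPD30, 4683 in NPD28, 1556 in NPD26 and 1466 in NPD27, again the order of Acan. T and the summed notochord markers followed the same order of litters in both stages. Over the stages, however, the chondrocyte sum did not rise with Acan, since 2 of its 11 tested members were higher and 5 lower at P0. Among all genes tested, 16.0% were higher and 12.0% lower. The share of notochord and cartilage RNA in a sample and the level of Acan in its cells cannot be told apart with these data.

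Neurocan mRNA was much scarcer than that of Acan and Vcan at E12.5 and was lower at P0. Ncan was at 30.4, 17.2, 56.3 and 30.2 CPM in NDP10.2, NPD3, NPD4 and NPD9.2, and at 20.3, 8.80, 6.83 and 15.2 CPM in NPD26, NPD27, NPD28 and NPD30. The stages overlapped through NPD3 and NPD26. The log2 fold change was -1.40 ± 0.43 (SE; adjusted p = 0.0319), and it lost its call without NDP10.2 (adjusted p = 0.0525), NPD4 (0.0836), NPD9.2 (0.0531), NPD27 (0.0817) or NPD28 (0.074). NPD4, the litter with the most Ncan, also had the highest sum of neural tube and neuron markers, 2628 CPM against 239 to 390 CPM in the other E12.5 litters, and without it the log2 fold change was -1.03. At P0 those markers ran in the same order as Ncan, at 1025, 743, 623 and 395 CPM in NPD26, NPD30, NPD27 and NPD28. Over the stages this order did not hold, since these sums all exceeded those of NDP10.2, NPD3 and NPD9.2. Ncan was nevertheless at 6.83 to 20.3 CPM at P0 against 17.2 to 30.4 CPM in those 3 litters. Of the 10 neural markers tested, 0 were higher and 4 lower at P0, where 16.0% and 12.0% of all genes tested were. The part of neural RNA in Ncan was not tested.

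Brevican mRNA was close to the floor at E12.5 and above it in every P0 sample. Bcan had 1, 0, 0 and 5 counts in NDP10.2, NPD3, NPD4 and NPD9.2, which is at most 1.23 CPM, and 45, 44, 13 and 40 counts in NPD26, NPD27, NPD28 and NPD30, which is 7.08, 6.34, 1.53 and 6.06 CPM. All P0 samples lay above all E12.5 samples, though NPD28 exceeded NPD9.2 only slightly. Such a separation held for 15.5% of the genes past the filter on low counts. The filter on low counts left Bcan out, so its test came from a fit to all 32299 genes with a count, chosen after the data were seen. There the log2 fold change was 3.98 ± 0.88 (SE; adjusted p = 0.000232). Without NPD9.2 it was 6.05, since 5 of the 6 E12.5 counts came from that litter. Summed over the 9 markers of astrocytes and oligodendrocytes, CPM ran from 157 to 211 in E12.5 samples and from 77.3 to 190 in P0 samples. Of the 6 that could be tested 2 were higher and 1 was lower, where 16.0% of all genes tested were higher and 12.0% lower. Opalin was at 0 in all E12.5 samples. Gfap, a filament protein of astrocytes, had at most 1.65 CPM in E12.5 samples and 2.12 to 8.96 CPM in P0 samples, lowest in NPD30. Mag, a myelin protein, had at most 0.725 CPM in E12.5 samples and 1.53 to 48.7 CPM in P0 samples, lowest in NPD28 as was Bcan. Gfap and Mag were picked after their values were seen, from a list whose sum was not higher at P0. The 7 neural crest and Schwann markers summed to 293 to 550 CPM in E12.5 samples. At P0 they summed to 639, 839, 91.7 and 104 CPM in NPD26, NPD27, NPD28 and NPD30. The part of glial or Schwann RNA in Bcan was not tested.

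**Figure D1:**
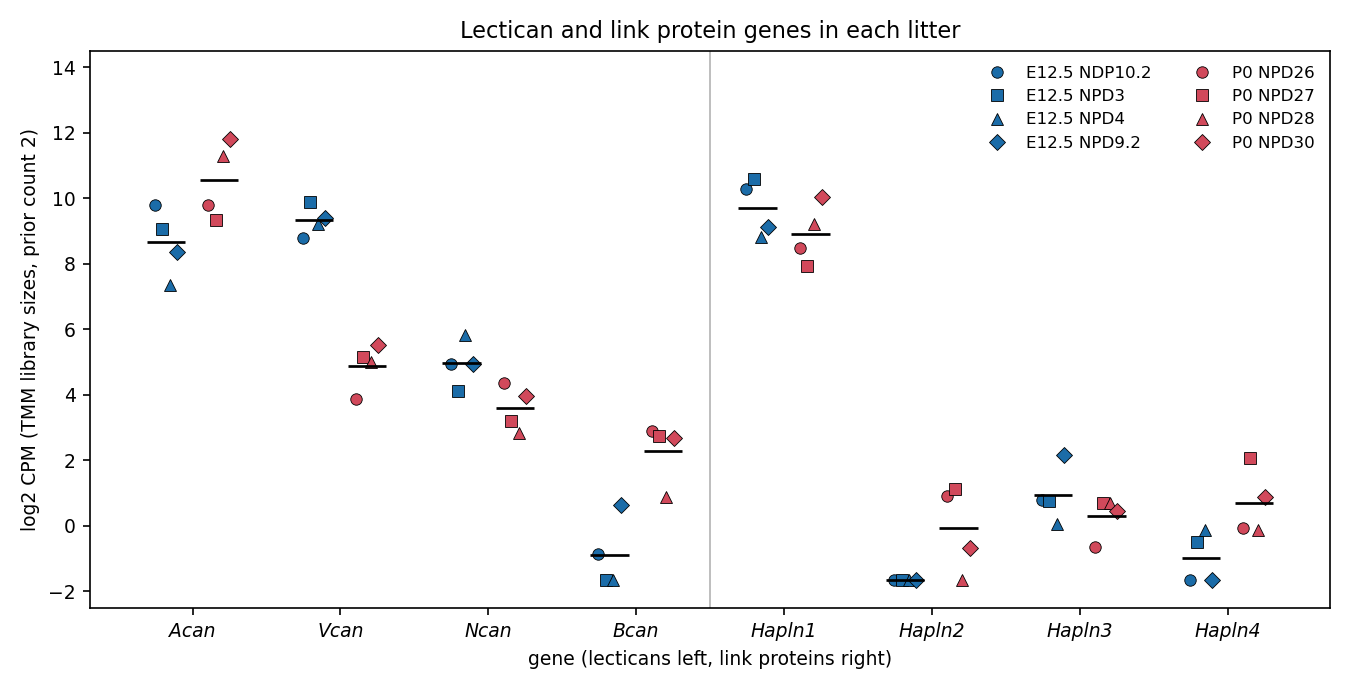
Log2 CPM (prior count 2) of the 4 lectican and 4 link protein genes, with 1 point per litter, blue for E12.5 and red for P0, and a bar at the mean of 4 litters. Vcan and Bcan separate the stages without overlap in opposite directions, Bcan only slightly, in NPD28 against NPD9.2. Among genes past the filter, which left Bcan out, 29.9% did not overlap. Acan, Ncan and Hapln1 overlap, and the lowest values of Bcan, Hapln2 and Hapln4 stand for 0 counts.

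Among the link proteins, Hapln1 was abundant at both stages and its change did not pass the test. It was at 1250, 1537, 446 and 554 CPM in NDP10.2, NPD3, NPD4 and NPD9.2, and at 355, 244, 589 and 1056 CPM in NPD26, NPD27, NPD28 and NPD30. The ranges overlapped broadly. The log2 fold change was -0.75 ± 0.52 (SE; adjusted p = 0.318), so neither a clear fall nor the absence of one was shown, and values of -1.30 to -0.45 were obtained when 1 sample at a time was left out. Without the filter on low counts it passed in the fits that left out NPD4 (adjusted p = 0.0317), NPD9.2 (0.0497) or NPD30 (0.000711). At P0 the litters ran from NPD30 through NPD28 and NPD26 to NPD27, the order seen in Acan.

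The other link proteins were rare. Hapln2 had 0 counts in all 4 E12.5 samples and 10, 13, 0 and 2 counts in NPD26, NPD27, NPD28 and NPD30. With the floor of 3 counts taken over the E12.5 group, or 0.141 CPM, the pooled P0 level of 0.869 CPM was 6.15-fold above that floor. This bound allows for counting error at E12.5 only, and not for the spread of the P0 litters, of which NPD28 had 0 counts. The bound fell to 3.89-fold without NPD27 and to 4.07-fold without NPD4. The fit to all genes with a count gave an adjusted p of 0.034, which rose above 0.05 without any 1 of the E12.5 samples (0.0594 to 0.0789), without NPD26 (0.114) or without NPD27 (0.113). Its counts came mostly from NPD26 and NPD27.

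Hapln3 had 6, 7, 6 and 17 counts in NDP10.2, NPD3, NPD4 and NPD9.2 and 2, 9, 11 and 7 counts in NPD26, NPD27, NPD28 and NPD30, with a log2 fold change of -0.89 ± 0.93 (SE; adjusted p = 0.495). It did not follow its neighbor Acan, which had 1335 to 23763 counts in the same libraries and whose end lies 2 bases away. Hapln4 had 0, 2, 5 and 0 counts at E12.5 and 4, 27, 5 and 10 at P0, of which NPD27 gave the 27. Its log2 fold change of 2.46 ± 1.16 (SE) did not pass the test (adjusted p = 0.151). Differences of Hapln3 and Hapln4 between the stages were not detectable at this depth.

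Of the 4 members that passed the filter, Acan was higher at P0, Vcan and Ncan were lower and Hapln1 did not pass the test, where 27.9% of all genes tested passed, 16.0% higher and 12.0% lower. Vcan was the only one of these 4 whose ranges at the 2 stages did not overlap, which was true of 29.9% of genes (15.5% with all P0 samples above and 14.4% with all E12.5 samples above). Of the 4 members that failed the filter, Bcan and Hapln2 were higher and Hapln3 and Hapln4 did not pass in the fit without a filter, where 15.2% of genes passed (9.18% higher and 5.97% lower). Within the neighboring pairs, both members of the Bcan and Hapln2 pair were higher at P0 in that fit, Hapln2 on 25 counts in all. Hapln2 passed in only 2 of the 8 fits that left out a sample, and not with DESeq2 (adjusted p = 0.0926) or limma-voom (0.111). A joint change of this pair is therefore not shown. In the other 3 pairs no more than 1 member passed, with or without the filter.

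For levels between genes, CPM was divided by the summed exon length in kilobases. At E12.5 the order was Hapln1 (160 ± 89.9 CPM per kb, SD, n = 4), Acan (64.3 ± 42.0), Vcan (45.9 ± 14.7) and Ncan (4.66 ± 2.28), followed by Hapln3 (0.547), Bcan (0.0901), Hapln4 (0.0634) and Hapln2 (0). Hapln1 exceeded Acan in 4 of 4 litters though their ranges overlapped, Acan exceeded Vcan in only 2 of 4, and neither Vcan and Ncan nor Ncan and Hapln3 overlapped. At P0 the order was Acan (255 ± 186 CPM per kb), Hapln1 (95.1 ± 61.0), Vcan (2.18 ± 0.892), Ncan (1.77 ± 0.854) and Bcan (1.29 ± 0.620), followed by Hapln4 (0.422), Hapln2 (0.395) and Hapln3 (0.282). Acan exceeded Hapln1 in 4 of 4 litters, Hapln1 and Vcan did not overlap, and neighbors below Vcan overlapped. Beside Hapln1, 2 lecticans were thus abundant at E12.5 and 1 at P0.

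The make-up of the lectican mRNA changed accordingly. Acan made up 77.5%, 51.4%, 30.9% and 46.4% of summed lectican CPM per kb in NDP10.2, NPD3, NPD4 and NPD9.2, and 95.6%, 94.3%, 99.0% and 98.6% in NPD26, NPD27, NPD28 and NPD30. Vcan made up 19.7% to 58.1% in E12.5 samples and 0.641% to 2.64% in P0 samples. Hapln1 made up 98.7% to 99.8% of the summed link protein CPM per kb in E12.5 samples and 95.0% to 99.5% in P0 samples. Shares of 1 total depend on each other, so these were not tested.

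**Figure D2:**
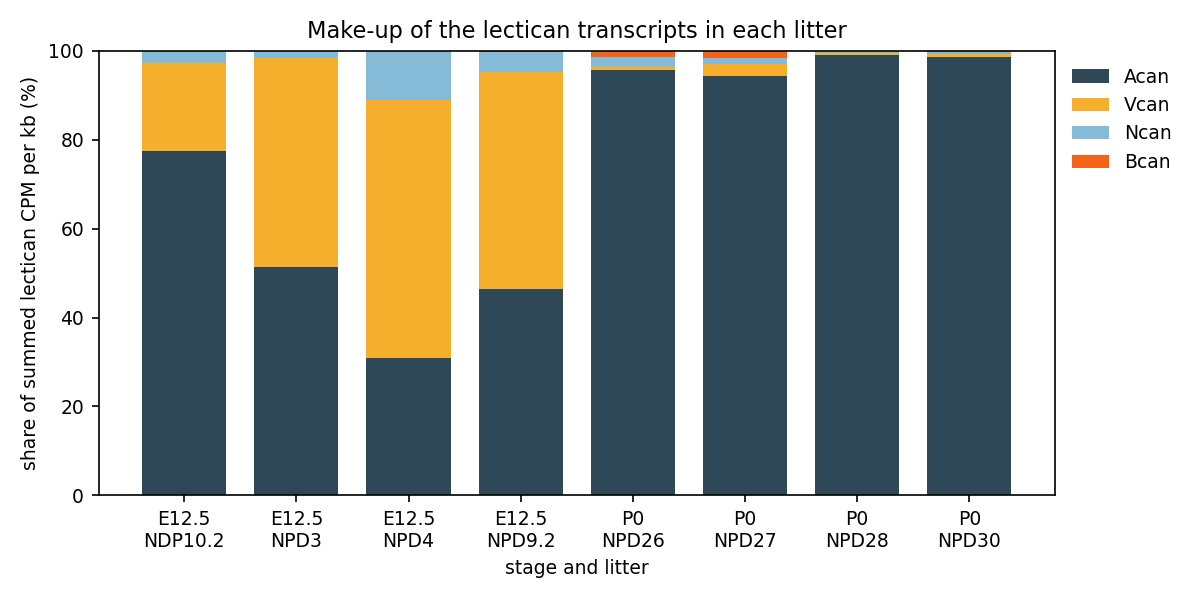
Share in percent of Acan, Vcan, Ncan and Bcan in the summed lectican CPM per kb of exon, with 1 stacked bar per litter. Acan fills 94.3% to 99.0% of each P0 bar, while E12.5 bars are split between Acan (30.9% to 77.5%) and Vcan (19.7% to 58.1%).

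Ratios of counts within a library do not depend on how libraries were scaled. The level of Acan alone did not separate the stages, but that of Vcan did, by enough to separate the ratios that hold Vcan. Tests of those ratios therefore add no support beyond the change of Vcan itself, and the 3 ratios depend on each other. The log2 ratio of Acan to Vcan was 1.02, -0.82, -1.86 and -1.02 in NDP10.2, NPD3, NPD4 and NPD9.2, and 5.96, 4.20, 6.30 and 6.31 in NPD26, NPD27, NPD28 and NPD30. All P0 samples lay above all E12.5 samples, by 6.36 on average, which is an 82.4-fold shift (two-sided exact permutation test, p = 0.0286; adjusted over 3 ratios, 0.0286). With 4 samples against 4, 0.0286 is the smallest p this test can give.

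Relative to its link protein, aggrecan mRNA was higher in all P0 samples than in any E12.5 sample. The log2 count ratio of Acan to Hapln1 was -0.49, -1.52, -1.44 and -0.75 in NDP10.2, NPD3, NPD4 and NPD9.2 and 1.33, 1.40, 2.08 and 1.77 in NPD26, NPD27, NPD28 and NPD30, with no overlap. Its mean moved from -1.05 ± 0.51 to 1.65 ± 0.34 (SD, n = 4), a 6.48-fold shift (exact permutation p = 0.0286; adjusted, 0.0286). The adjusted value equals the unadjusted one only because the ratios that hold Vcan gave the same p. How often ratios of other gene pairs separate the stages was not examined. Per kb of exon there were 1.77 to 3.62 Hapln1 for each Acan at E12.5 and 1.99 to 3.33 Acan for each Hapln1 at P0. Acan alone had ranged 5.43-fold and 5.58-fold within the stages, so the ratio varied less between litters than the Acan level did. The log2 ratio of Vcan to Hapln1, its neighbor on chromosome 13, moved from -0.38 ± 0.90 to -4.05 ± 0.85, a 12.7-fold fall (exact permutation p = 0.0286; adjusted, 0.0286), again without overlap.

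**Figure D3:**
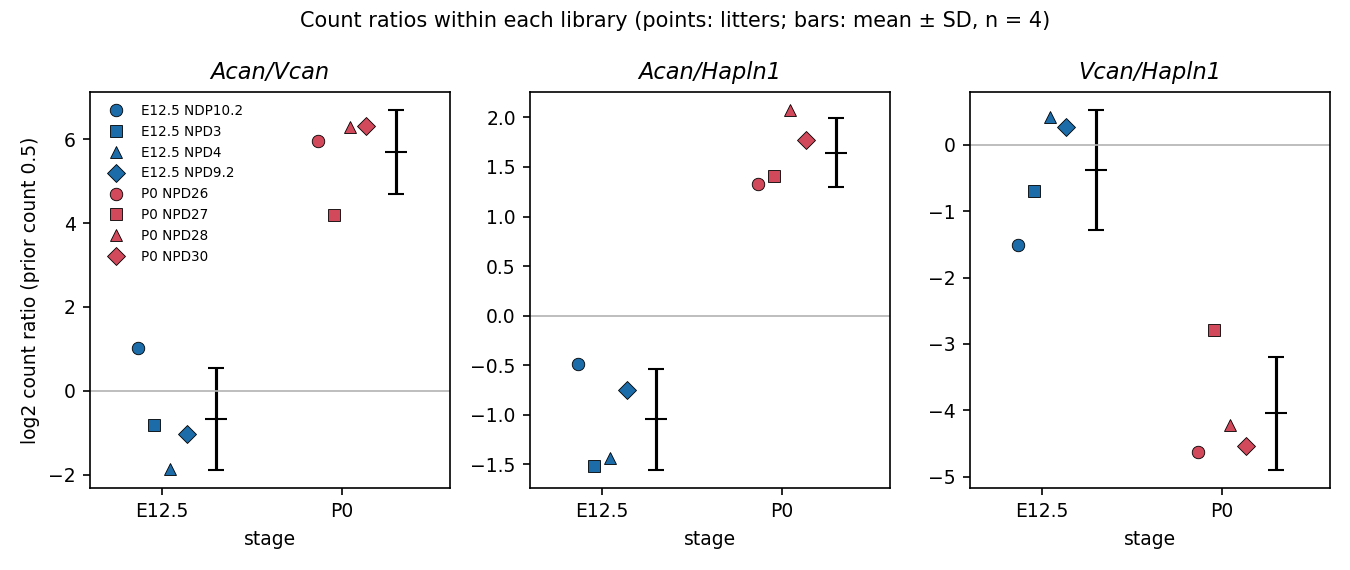
Log2 ratio of raw counts (prior count 0.5) of Acan to Vcan, Acan to Hapln1 and Vcan to Hapln1, with 1 point per litter and the mean ± SD of 4 litters beside the points. The stages do not overlap in any of the 3 ratios, and NPD27 lies apart from the other P0 litters in the ratio of Acan to Vcan, at 4.20.

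The genes most like Acan, Vcan and Hapln1 over the 8 samples were sought among 8282 other genes, as those with the smallest root mean square (RMS) difference in log2 CPM after each gene was centered on its own mean. For Acan they were Meltf, an iron-binding surface protein (RMS 0.22), Htra1, a secreted serine protease (0.23), Chrm2, a muscarinic acetylcholine receptor (0.25), and Galnt3, which starts O-linked glycosylation (0.26), against a median of 1.40 over all candidates. Their log2 fold changes were 2.14, 1.98, 2.24 and 2.05. For Vcan they were Fbn2, the fibrillin of embryonic microfibrils (0.39), Fat4, a giant cadherin (0.47), the imprinted gene Mest (0.52) and the Hippo pathway factor Tead2 (0.55), with log2 fold changes of -4.28, -4.10, -4.27 and -3.75. For Hapln1 they were Colgalt2, a collagen galactosyltransferase (0.20), the small GTPase Rhoj (0.21), Kank1 (0.27) and the homeobox gene Lmx1a (0.28), against a median of 0.97. A gene with a like difference between the stages scores well here, so this list is a description of these 8 samples.

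**Figure D4:**
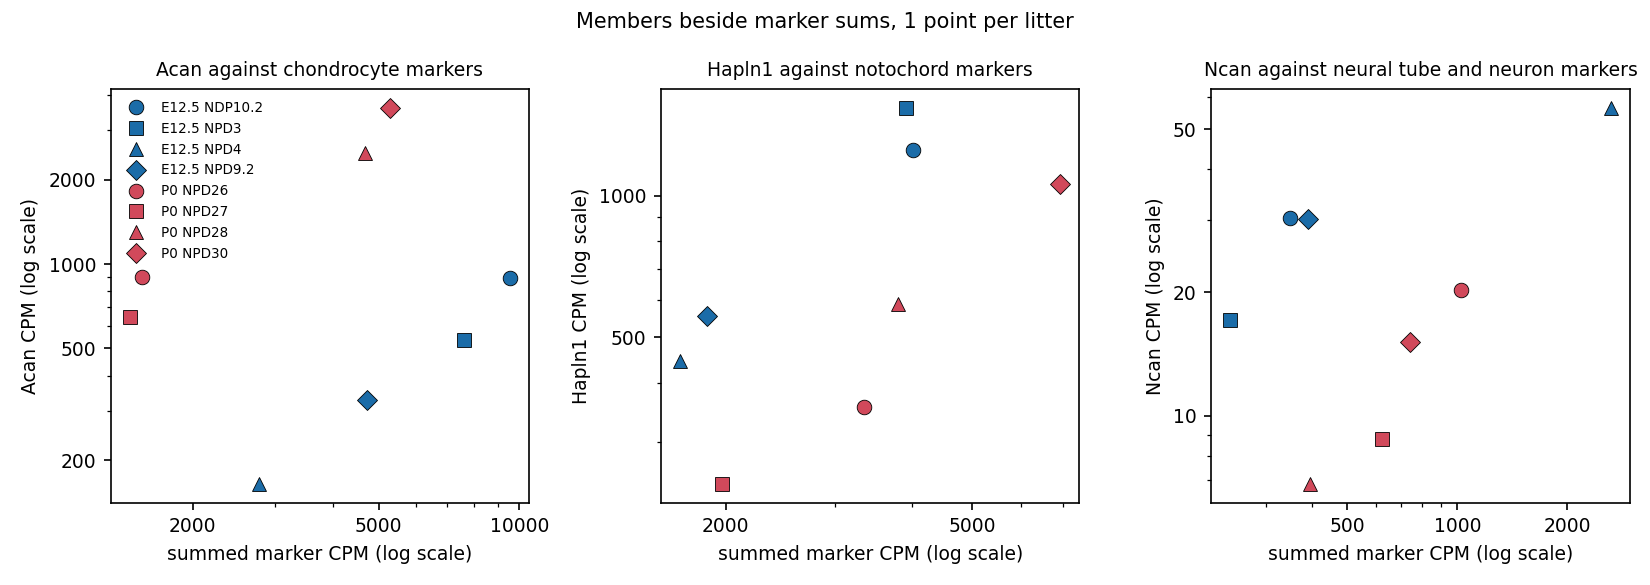
CPM of Acan, Hapln1 and Ncan (y axes) against the summed CPM of chondrocyte, notochord, and neural tube and neuron markers (x axes), on log scales, with 1 point per litter. Within each stage Acan increases with the chondrocyte sum, at a lower level for E12.5, and the E12.5 litter NPD4 combines the highest Ncan with the highest neural sum, 2628 CPM.

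Genes that make, bind, cut or decorate these aggregates were grouped in 6 lists of 48 genes, of which 45 could be tested and 20 passed, where 27.9% of all genes tested did, 16.0% higher and 12.0% lower. Of 10 genes for hyaluronan synthesis, breakdown and surface binding, 1 was higher and 4 were lower at P0 (against the same 16.0% and 12.0%), with a median log2 fold change of -0.47 against 0.036 over all genes tested. The hyaluronan synthase Has1 was at 7.59 ± 2.04 CPM and 0.768 ± 0.449 CPM (log2 fold change -3.29, adjusted p = 0.00182). The synthase Has3 went from 8.31 ± 2.52 CPM to 2.73 ± 1.04 CPM (log2 fold change -1.59, adjusted p = 0.0197), the hyaluronidase Hyal2 from 55.3 ± 13.2 CPM to 18.2 ± 2.29 CPM (-1.60, adjusted p = 0.00104) and the surface hyaluronidase Cemip2 from 153 ± 70.8 CPM to 36.8 ± 12.8 CPM (-2.06, adjusted p = 0.0021). Has2, the main synthase of embryonic matrix, was at 24.3 ± 13.1 CPM and 9.18 ± 6.06 CPM and did not pass (adjusted p = 0.0698), though it did with DESeq2 (0.0286), with upper quartile scaling (0.0425), without a filter (0.0308) and without NPD28 (0.0386). Without NPD3, NPD26 or NPD27, Has3 did not pass either (adjusted p = 0.0537 to 0.0619).

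The link module, the fold with which lecticans and link proteins grip hyaluronan, occurs in 5 other genes of the lists, of which 3 were higher and none lower (median log2 fold change 3.64), where 16.0% of all genes tested were higher. That count was 1 with limma-voom, where Stab1 (adjusted p = 0.258) and Stab2 (0.111) did not pass, and also 1 without a filter (0.125 and 0.0746). Cd44, the hyaluronan receptor, rose from 23.5 ± 3.53 CPM to 327 ± 169 CPM (log2 fold change 3.79 ± 0.37 SE, adjusted p = 0.000123), with no overlap. The endocytic receptors Stab1 (log2 fold change 3.64, adjusted p = 0.0262) and Stab2 (3.71, adjusted p = 0.0131) were higher too, but Stab1 spread from 3.03 to 580 CPM at P0 and did not pass without NDP10.2, NPD3, NPD4, NPD26 or NPD27 (adjusted p = 0.0543 to 0.0801). Without NPD9.2, Stab2 had a log2 fold change of 4.37. The E12.5 values of Stab2, 0.585 to 6.64 CPM, reached down to the floor. Lyve1 (2.63, adjusted p = 0.065) and Tnfaip6 (0.80, adjusted p = 0.129) did not pass, though Lyve1 did with DESeq2 (adjusted p = 0.00734) and without NPD30 (0.0126). Leukocytes also carry Cd44 and macrophages carry Stab1, and all 14 leukocyte markers were higher at P0, with the lowest sum in NPD30. The part of leukocyte RNA in these changes was not tested.

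All 5 ligands of the lectin-like domain at the C-terminus of lecticans passed the test, 2 higher and 3 lower at P0, where 27.9% of all genes tested passed. Tenascin-R (Tnr), a brain matrix protein, rose from 1.04 ± 1.27 CPM to 16.4 ± 9.26 CPM (log2 fold change 4.06 ± 0.71 SE, adjusted p = 0.00224), and by 5.26 without NPD9.2. The E12.5 values of Tnr, 0.363 to 2.95 CPM, lay near the floor, and it passed the filter through its P0 samples. Tenascin-C (Tnc) was at 50.9 ± 20.2 CPM and 115 ± 43.4 CPM, with ranges that overlapped (1.18, adjusted p = 0.0473), and 7 of the 8 fits that left out a sample did not call it (all but the one without NPD26). It was also not called under 4 of 9 other alternatives, and wherever it was lost the count of ligands called was 4. The fibulins Fbln1 (-2.67, adjusted p = 0.000148) and Fbln2 (-2.06, adjusted p = 0.00312) and the microfibril protein Fbn1 (-1.55, adjusted p = 0.00451), which are partners of versican, were lower in all P0 samples than in all E12.5 samples. Of all genes tested, 14.4% had every E12.5 sample above every P0 sample.

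Of 7 tested genes for the proteases that cut lecticans and their inhibitor Timp3, 1 was higher and 2 were lower (median log2 fold change -0.15), where 16.0% and 12.0% of all genes tested were. The versicanases Adamts9 and Adamts15 went from 74.3 ± 29.5 CPM to 20.1 ± 4.29 CPM (-1.88, adjusted p = 0.0019) and from 36.0 ± 13.9 CPM to 5.24 ± 1.67 CPM (-2.78, adjusted p = 0.000444), and the related Adamts20 from 6.82 ± 1.79 CPM to 63.4 ± 35.6 CPM (3.23, adjusted p = 0.000587). None of these 3, which were named because they passed, overlapped between stages, as was true of 29.9% of all genes tested. The aggrecanases Adamts4 (-0.15, adjusted p = 0.882) and Adamts5 (0.12, adjusted p = 0.835) did not pass. Adamts8 had too few counts to be tested.

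Of 17 tested genes for chondroitin sulfate chains, 3 were higher, 1 was lower and 13 did not pass, with a median log2 fold change of -0.057. With 27.9% of all genes tested passing, this is no result about these genes as a group. The higher genes were Csgalnact1 (log2 fold change 2.02, adjusted p = 0.0154) and Csgalnact2 (1.98, adjusted p = 0.00192), which start the chain, and Chst12 (2.11, adjusted p = 0.00443), which sulfates it. The chain-extending enzyme Chsy1 was lower (-1.15, adjusted p = 0.00623). Csgalnact1 did not pass without NPD9.2 (adjusted p = 0.0523), and Chst7 and Chst13 had too few counts to be tested. Of the 3 Sox factors of cartilage matrix genes, Sox5 went from 129 ± 30.7 CPM to 32.6 ± 20.8 CPM (-1.99, adjusted p = 0.00651), while Sox6 (-0.24, adjusted p = 0.715) and Sox9 (-1.23, adjusted p = 0.0636) did not pass. Sox9 passed without NPD30 (-1.86, adjusted p = 0.0021), with DESeq2 (-1.24, adjusted p = 0.0252), with limma-voom (-1.45, adjusted p = 0.0297) and with upper quartile scaling (-1.36, adjusted p = 0.0483).

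**Figure D5:**
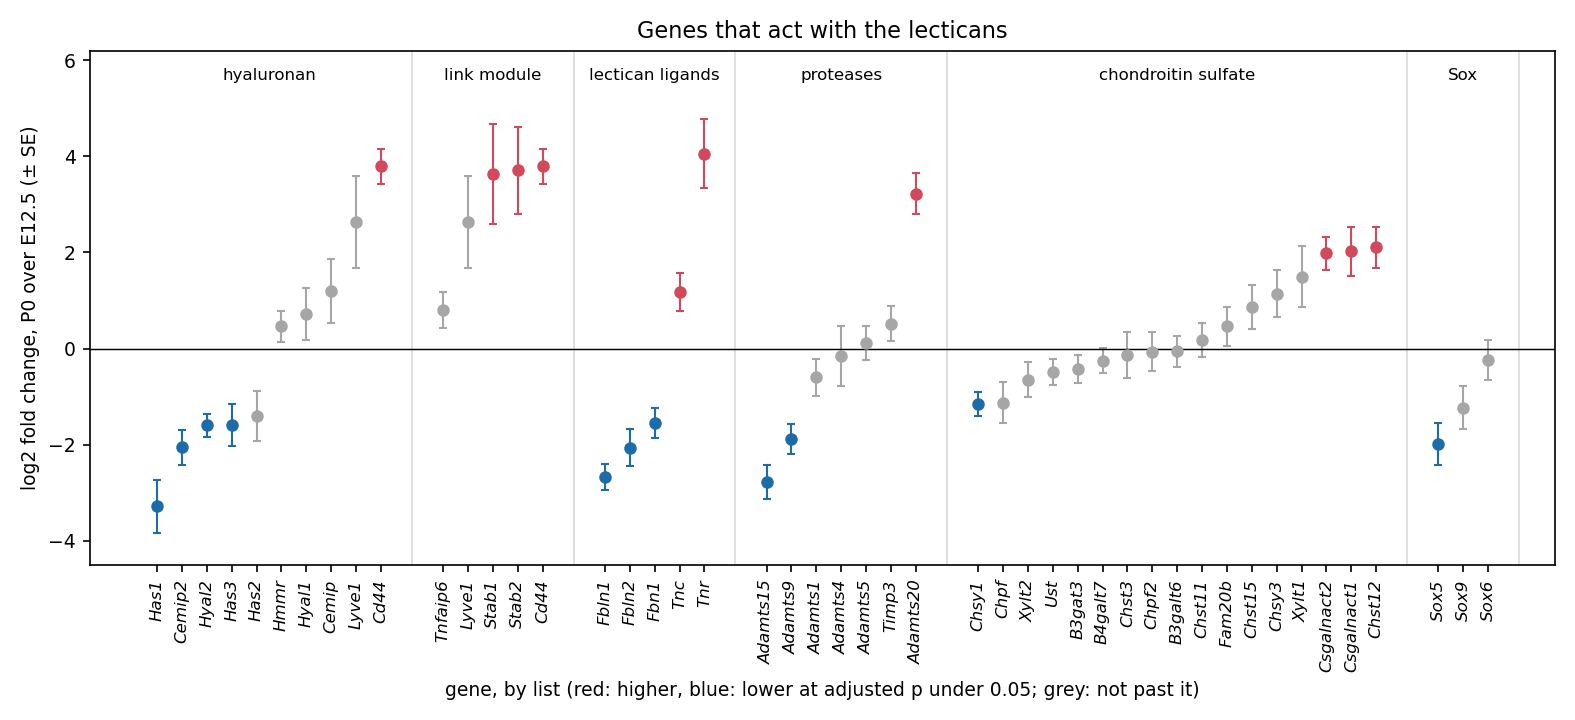
Log2 fold change (P0 over E12.5, ± SE) of the tested genes of 6 lists that act with the lecticans, ordered by value within each list, with Cd44 and Lyve1 shown in both lists that hold them. Red points were higher and blue points lower at P0, and grey points did not pass, as for 13 of the 17 chondroitin sulfate genes.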

How the data were processed

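RNA was sequenced as single-end reads of 100 bases from 4 litter pools at E12.5 and 4 at P0. STAR was used by the authors for alignment to GRCm38 and htseq-count for counting against Gencode M4, and the deposited values are raw counts per gene, not normalized. The submitters' processing notes also name mm9 and edgeR, with no role given, and the strand setting is not given in the sources used here. Of 43346 identifiers, 42462 matched a symbol. Between 7.07% and 17.5% of reads per sample were set aside as ambiguous. Positions and exon lengths came from Gencode M21, a later annotation than that used for counting.

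Stages were compared with the quasi-likelihood F-test of edgeR 4.0.16 (R 4.3.3) after TMM normalization, filterByExpr (minimum count 10, minimum total 15) and robust dispersions. P-values were adjusted by the Benjamini-Hochberg method over 15467 genes and called at 0.05. The standard error is the log2 fold change divided by the square root of F. Ratios used a prior count of 0.5 and a two-sided exact permutation test. DESeq2 1.42.0 and limma 3.58.1 gave alternatives. Replicates were separate litters, and no 2 libraries agreed within sampling noise. By chi-square per degree of freedom, the closest were NDP10.2 with NPD9.2 (13.0) and NPD26 with NPD27 (14.3). Other pairs within a stage were at 29.9 to 90.0. Reads on genes made up 22.6% and 24.6% in NDP10.2 and NPD9.2, against 32.6% and 33.7% in NPD3 and NPD4.

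The members, lists and tests were chosen with earlier results of these data known. Named genes were all members, up to 4 genes of each list with the largest change among those that passed at a mean log2 CPM of at least 2, every gene of lists of 5 or fewer, and the 4 genes most like Acan, Vcan and Hapln1 among those with a mean log2 CPM of at least 4. Has1, Has2, Adamts4, Adamts5, Adamts8, Chst7, Chst13, Gfap and Mag were added after their values were seen.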

Additional observations from a re-analysis of the deposited data

Results flagged for a closer look

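One value stood apart from its group. The log2 ratio of Acan to Vcan in the P0 litter NPD27 was 4.20, against 5.96 to 6.31 in the other P0 litters, and its gap to the nearest of them was 0.834 of the whole range, above Dixon's critical value for 4 samples. It was still above all E12.5 litters. This was 1 of 22 groups of 4 examined, and chance flags about 1 in 20 groups. Its Vcan (35.0 CPM) was within the range of the other P0 litters and its Acan (646 CPM) was the lowest at P0.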

How the results depend on the processing

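No paired analysis was possible because the litter names share no number across stages and the replicate numbers follow only the order of the samples. The change of Vcan kept its direction and its side of the threshold under every alternative run. Among these were DESeq2, limma-voom, other scalings, other filters and dispersions that were not robust. Bcan kept both in every fit without a filter. With the filter it had a value only in fits that left out E12.5 samples or NPD28, where it also kept both (adjusted p up to 0.0429, edgeR). Requiring 10 counts in every sample left no value for Bcan either. Hapln1 kept its direction and did not pass with all samples, but passed without a filter in 3 of the 8 fits that left out a sample. Upper quartile scaling shifted the median of all genes by -0.147, and there Acan changed by 1.85 on the log2 scale (adjusted p = 0.054). Acan also did not pass without a filter (2.03, adjusted p = 0.16), although on the same genes it did with dispersions that were not robust (0.00046), DESeq2 (0.00438) and limma-voom (0.0306), and DESeq2 after the filter gave 0.00398. Without both NDP10.2 and NPD9.2, 2581 genes were called instead of 4321, Acan had 2.41 (adjusted p = 0.108), Ncan -1.56 (adjusted p = 0.0987), Hapln2 5.69 (adjusted p = 0.145) and Bcan 8.18, and the shift in the log2 ratio of Acan to Vcan was 7.03. Hapln2 did not pass with DESeq2 (4.72, adjusted p = 0.0926) or limma-voom (2.33, adjusted p = 0.111). With each sample left out in turn, the number of genes called was 3612 to 4529 and that of list genes 17 to 22. The log2 fold changes were then 1.44 to 2.43 for Acan, -4.66 to -4.14 for Vcan, -1.70 to -1.03 for Ncan, 3.45 to 6.05 for Bcan, -1.30 to -0.45 for Hapln1, 4.96 to 5.89 for Hapln2, -1.17 to -0.21 for Hapln3 and 1.69 to 3.35 for Hapln4. The shifts in log2 ratio were 5.97 to 6.93 for Acan to Vcan, 2.54 to 2.88 for Acan to Hapln1 and -4.08 to -3.40 for Vcan to Hapln1, as values with no test. Lmx1a, not called in any fit, had -0.87 to 0.018 (0.018 without NPD3, against -0.27 with all samples). Neither Adamts4 nor Adamts5 was called in any fit, but both changed sign. Adamts4 had 0.014 without NDP10.2 and NPD9.2 and -1.01 to 0.14 with a sample left out, and Adamts5 had -0.020 with upper quartile scaling and -0.098 to 0.36 with a sample left out. The causes of these changes were not tested beyond the smaller number of samples. Fits without a filter for Bcan, Hapln2, Hapln3 and Hapln4, the list counts, the bounds of Hapln2 with a library left out, and the alternatives for list genes were alternatives chosen after seeing the data. Depth limits Bcan at E12.5, Hapln2, Hapln3 and Hapln4, whose counts lie near the floor. It also limits Tnr and, in part, Stab2 at E12.5, and Has1 at P0. Requiring 10 counts in every sample left no value for Tnr, Stab2 or Has1.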
